A study of Schizosaccharomyces pombe with 15 samples.

Results

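Of the 6998 genes counted in fission yeast, 11 had mean levels at least 1.5 times those of unirradiated cells at 10, 15 and 30 min after atmospheric-pressure plasma while their H2O2 mean stayed below 1.3 times. They were chosen by group means of CPM, that is counts scaled to a common library size by TMM (trimmed mean of M-values). The overall mean had to be at least 5 CPM, the 30 min mean above 0.67 times the 10 min mean, and non-coding RNA genes (identifiers starting SPNCRNA) were left out. The 15 libraries fall into 5 groups of 3 biological replicates, all of wild-type Schizosaccharomyces pombe strain JY450 grown in YE medium (a rich yeast extract medium), with no introduced allele. The groups were cells without irradiation, cells 10, 15 and 30 min after plasma, and cells given hydrogen peroxide (H2O2). Neither the growth phase of the cells (logarithmic or stationary), nor the strength of the plasma, nor the amount and duration of H2O2 was stated in the sources used here. Libraries held 14691752 to 23232575 counts and are named by group and by the letter a, b or c of their column.

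Atmospheric-pressure plasma is an ionised gas that delivers a mixture of reactive oxygen and nitrogen species together with light and electric fields, whereas H2O2 is a single oxidant. In fission yeast, H2O2 acts mainly through the stress kinase Sty1 with its transcription factor Atf1, and through the transcription factor Pap1, which together raise a broad set of protective genes. Misfolded protein instead acts through heat shock factor, and damage to the cell wall through the kinase Pmk1.

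The 11 genes were a small share of what plasma raised. Whatever their H2O2 level, 259 genes met the plasma clauses, and the 11 are 4.25% of them. Their H2O2 to control ratio had a median of 2.13 and ran from 0.81 to 88.0, with 229 genes at 1.5 or more, 19 between 1.3 and 1.5, and 11 below 1.3. The highest H2O2 ratio among the 11 was 1.27 and the next gene above them was at 1.32, so no gap separated them from the rest. A further 1 gene, a non-coding RNA, met every other clause.

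**Figure D1:**
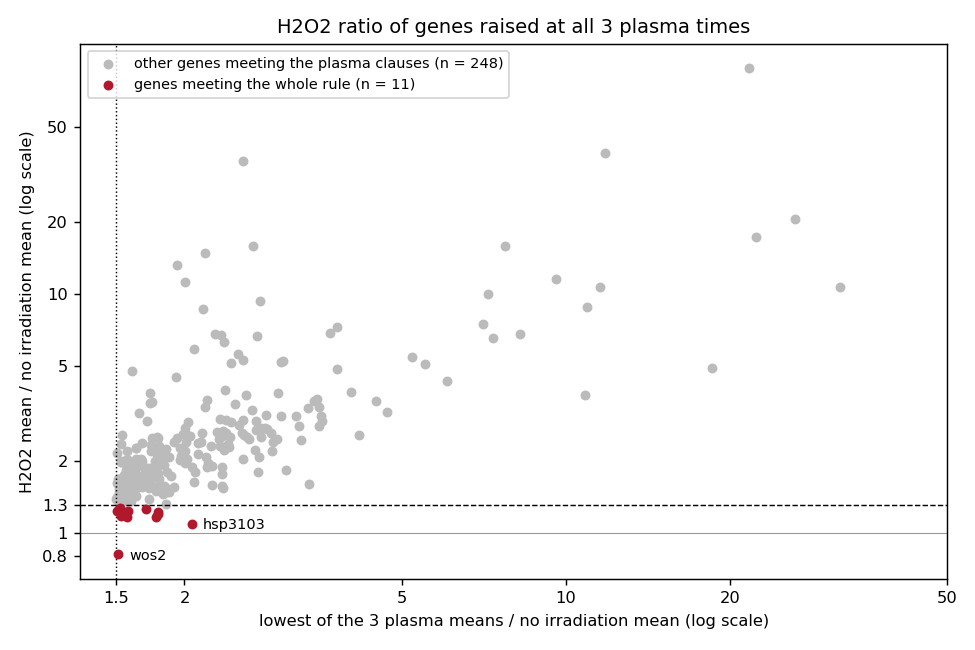
Lowest of the 3 plasma group means against the H2O2 mean, both divided by the no irradiation mean, on log axes, for the 259 genes that met the plasma clauses (dashed line, H2O2 ratio of 1.3; dotted line, plasma ratio of 1.5; grey line, ratio of 1). The 11 genes (red) lie below the dashed line, with wos2 alone below a ratio of 1 and hsp3103 alone past a plasma ratio of 2.

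The name given to the group, genes raised by plasma but not peroxide, is a statement of size set by the limits of the rule. In 10 of the 11 the H2O2 mean was above the control mean, and wos2 was the exception at 0.81 times. All 3 H2O2 libraries lay above all 3 controls in 9 of the 11, against 29.6% of the 5214 genes tested. Such shares, here and in the rest of the paragraph, describe values the choice had used and nothing is read from them. By the limits of the rule, the genes are described as raised at least 1.5-fold by plasma and less than 1.3-fold by H2O2. Toward plasma, all 9 irradiated libraries lay above all 3 controls in 10 of the 11 (17.5% of genes tested), wos2 being the exception through control library b. All 9 lay above all 3 H2O2 libraries in 10 of the 11 (6.23%), the exception being ecl2 in library a at 15 min. The H2O2 libraries stand in a deposited table of their own with no control column, and treatment and table cannot be told apart. No time is given for the controls, so a response to plasma and one to the minutes spent on the filter cannot be told apart either. In RNA from whole cultures, a change in every cell and a larger change in some cells cannot be told apart.

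Several of the 11 lay near a limit of the rule. Closest inside the plasma limit of 1.5 were ecl2, whose lowest plasma ratio was 1.51, wos2 at 1.51 and mug121 at 1.52. Just outside it were ubc6 (SPAC10F6.05c) at 1.46, hht3 (SPBC1105.11c) at 1.46 and SPBC530.11c at 1.43. Closest inside the H2O2 limit of 1.3 were mug121 at 1.27, SPAC1952.04c at 1.26 and mdv1 at 1.24, and just outside it were SPBC30D10.14 at 1.32, plg7 (SPBC106.11c) at 1.33 and ufd1 (SPBC16A3.09c) at 1.35. The 30 min to 10 min ratio came closest to its limit in SPCC737.04, at 0.74, followed by mdv1 at 0.97 and SPAC1952.04c at 0.999. The lowest overall means were 8.55 CPM in SPCC737.04, 15.4 in SPAC56F8.15 and 23.4 in mug121, while the nearest genes under the limit of 5 CPM were sec3 (SPAC17G8.12) at 1.48, pfa5 (SPBC691.01) at 0.95 and SPAC186.03 at 0.89.

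The rule was also applied with the libraries of 1 letter left out, and the genes it then chose were read in those libraries. Leaving out letters a, b and c gave choices that shared 9, 8 and 7 genes with the 11. The 11 were chosen on all 15 libraries, so no library tests them as a set. With the libraries of letter a left out of every group, 13 genes met the rule. In the left-out libraries, 1 per group, every ratio was taken to the single control library of that letter. There, 8 of the 13 had all 3 plasma ratios at 1.5 or more, 10 had an H2O2 ratio below 1.3 and 6 had both. Of the 4207 genes that met the minimum mean, 5.87% had the first, 81.1% the second and 0.166% both, so the count for H2O2 alone was near the share over all genes. With letter b left out, 8 of 11 chosen genes had the first (background 7.82%), 7 the second (79.9%) and 4 both (0.403%). With letter c left out, 8 of 12 had the first (6.98%), 9 the second (81.7%) and 6 both (0.451%). For H2O2 alone, none of the 3 counts was above the share over all genes. mdv1, SPAC1952.04c and hsp3103 were chosen each time and met both limits each time in the left-out libraries. SPAPB1A10.08, SPAC56F8.15 and SPCC737.04 were also chosen all 3 times, but SPAPB1A10.08 reached an H2O2 ratio of 1.31 in the libraries of letter b, SPCC737.04 one of 1.33 there, and SPAC56F8.15 one of 1.35 there and a plasma ratio of 1.23 in those of letter c. ecl2 was chosen in none of these 3 choices. With single libraries left out in turn, 15 times, mdv1, SPAPB1A10.08, SPAC1952.04c, hsp3103 and SPCC737.04 met the rule every time. wos2 was lost 7 times, ecl2 6, mug121 4, ndi1 3, SPAC56F8.15 2 and gas2 1 time. Without 15 min library b, 6 genes met the rule.

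Among the 11 are 7 genes with a named product in the RefSeq annotation and 4 listed as uncharacterized. They encode proteins of 84 to 651 residues with a median of 261, against 378 over 5113 coding genes. A coding intron was annotated in 4 of the 11 (36.4%), against 46.7% of all coding genes. Of the 11, 6 lie on chromosome I, 4 on II and 1 on III, beside 2339, 1899 and 959 of the genes tested. ndi1 and hsp3103 lie 12210 bases apart on chromosome II. Positions are those of the deposited tables.

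hsp3103 (SPBC947.09, chromosome II, 656117 to 657873, minus strand) encodes a ThiJ domain protein of the Hsp31 family, annotated as a glyoxalase III, an enzyme class that detoxifies methylglyoxal. Its level was 34.6, 33.0 and 32.8 CPM in control libraries a, b and c and 37.0, 37.7 and 34.7 with H2O2. After plasma it was 62.9, 70.3 and 74.1 CPM at 10 min, 76.8, 102 and 100.1 at 15 min and 96.9, 123 and 126 at 30 min. The H2O2 libraries were close to the controls, every plasma library was above both groups, and the 30 min mean was the highest. The group means were 33.5 ± 1.01 CPM without irradiation and 115 ± 15.98 at 30 min (SD, n = 3). The plasma ratios were 2.06, 2.78 and 3.44 times the control mean at 10, 15 and 30 min, and the H2O2 ratio was 1.09. It was the one gene of the 11 that kept a ratio of at least 2 at all 3 plasma times. On the log2 scale the difference from control was 1.78 ± 0.11 (SE) at 30 min and 0.12 ± 0.11 with H2O2.

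ndi1 (SPBC947.15c, chromosome II, 641285 to 643906, plus strand) encodes an NADH dehydrogenase of the alternative type, which in mitochondria passes electrons from NADH to ubiquinone without pumping protons. It stood at 246, 279 and 250.4 CPM in the controls and at 302, 297 and 307 with H2O2. After plasma it stood at 383, 441 and 406 CPM at 10 min, 344, 429 and 414 at 15 min and 401, 435 and 454 at 30 min. The lowest plasma library, a at 15 min, was still above the highest H2O2 library. The plasma ratios were 1.59, 1.53 and 1.66 times control against 1.17 with H2O2.

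mdv1 (SPAC664.15, chromosome I, 1734381 to 1737307, plus strand) encodes a protein annotated in RefSeq as CCR4-Not complex subunit Caf4/Mdv1. Adaptors of the Caf4/Mdv1 type recruit, in budding yeast, the dynamin Dnm1 to mitochondria for their division. The level of mdv1 was 71.5, 68.7 and 74.7 CPM in the controls, and 92.2, 84.4 and 88.9 with H2O2. The plasma libraries were at 113, 119.9 and 116 CPM at 10 min, 115, 122 and 121 at 15 min and 108, 114 and 116 at 30 min. The 3 groups formed separate steps with no overlap, controls lowest, H2O2 between and plasma highest, and the 3 plasma times overlapped each other. The ratios were 1.62, 1.67 and 1.57 times control after plasma and 1.24 with H2O2. No annotated gene overlaps it in the deposited tables.

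wos2 (SPAC9E9.13, chromosome I, 4467887 to 4469061, minus strand) encodes the p23 co-chaperone of Hsp90. It stood at 810.4, 1386 and 730.1 CPM in control libraries a, b and c and at 823, 786 and 761 with H2O2. After plasma it was at 1300.4, 1549 and 1579 CPM at 10 min, 1210.2, 1652 and 1663 at 15 min and 1446, 1585 and 1456 at 30 min. Control library b was well above the other controls and above 2 plasma libraries, a at 10 min and a at 15 min, while the H2O2 libraries were close to control libraries a and c. The means were 975 ± 358 CPM without irradiation, 1476 ± 153 at 10 min and 790.1 ± 30.9 with H2O2 (SD, n = 3). The difference from control was 0.62 ± 0.19 (log2, SE) at 30 min and -0.30 ± 0.19 with H2O2. Without control library b these became 0.98 and 0.050, so the H2O2 level was then at that of the controls and not below it.

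gas2 (SPBC29A10.08, chromosome II, 2554009 to 2555531, plus strand) encodes a 1,3-beta-glucanosyltransferase, an enzyme that elongates and joins glucan chains of the cell wall. It was at 169, 159 and 161 CPM in the controls and at 185, 188 and 197 with H2O2. At the plasma times it was at 330.5, 300.1 and 247 CPM at 10 min, 221, 288 and 256 at 15 min and 322, 335 and 339 at 30 min. The 3 groups did not overlap, and the 15 min libraries were the lowest of the plasma libraries apart from c at 10 min. The ratios were 1.80, 1.57 and 2.04 times control after plasma and 1.16 with H2O2. gas2 shares 1355 of its 1523 listed bases (89%) with tri1 (SPBC29A10.09c) on the other strand, which leaves 168 bases of its own. tri1 was at 1.81 ± 0.412 CPM without irradiation and 0.915 ± 0.391 at 30 min, and was not higher after plasma.

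ecl2 (SPBP35G2.16c, chromosome II, 961007 to 963780, minus strand) encodes a small protein of the Ecl family, whose members lengthen chronological lifespan in fission yeast when their dose is raised. It was at 193, 223 and 199 CPM in the controls and at 245, 248 and 263 with H2O2. In irradiated cells it was at 319.7, 333 and 275 CPM at 10 min, 257, 355 and 318 at 15 min and 374, 382 and 354 at 30 min. The 15 min library a fell inside the H2O2 range, while the other 8 plasma libraries were above it. Libraries a and b at 30 min were the highest of all 15. The ratios were 1.51, 1.51 and 1.80 times control after plasma and 1.23 with H2O2. ecl2 shares 699 of its 2774 listed bases (25.2%) with the non-coding RNA gene SPNCRNA.1400 on the other strand.

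mug121 (SPAC13C5.06c, chromosome I, 434102 to 435179, minus strand) takes its name from a screen for genes raised in meiosis. It was at 17.2, 17.5 and 15.7 CPM in the controls and 21.5, 20.21 and 22.4 with H2O2. After plasma it was at 29.4, 25.9 and 24.8 CPM at 10 min, 24.3, 27.4 and 25.0 at 15 min and 26.1, 26.5 and 27.8 at 30 min. The H2O2 libraries lay between the controls and the plasma libraries with no overlap, and the 3 plasma times overlapped. The ratios were 1.59, 1.52 and 1.59 times control after plasma and 1.27 with H2O2. It shares 74.9% of its listed length with other genes.

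Of the 4 uncharacterized genes, SPAPB1A10.08 (chromosome I, 1875572 to 1877864, plus strand) encodes a protein of 416 residues. It stood at 39.2, 37.0 and 40.0 CPM in the controls and 48.0, 48.4 and 45.7 with H2O2. After plasma it stood at 71.3, 69.6 and 66.6 CPM at 10 min, 71.0, 70.6 and 71.6 at 15 min and 102, 94.2 and 86.8 at 30 min. The 10 and 15 min libraries were close together, and all 3 libraries at 30 min were above them. The ratios were 1.79, 1.83 and 2.44 times control after plasma and 1.22 with H2O2.

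SPAC1952.04c (chromosome I, 4972426 to 4973471, minus strand) encodes a protein of 137 residues and overlaps no annotated gene in the tables. It was at 24.9, 24.8 and 23.8 CPM in the controls and 32.1, 30.0 and 30.6 with H2O2. At the plasma times it was at 39.1, 41.7 and 44.0 CPM at 10 min, 53.9, 49.2 and 50.5 at 15 min and 41.1, 44.0 and 39.6 at 30 min. The 15 min libraries were the highest, the 10 and 30 min libraries overlapped, and the H2O2 libraries lay between these and the controls. The ratios were 1.70, 2.09 and 1.70 times control after plasma and 1.26 with H2O2.

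SPCC737.04 (chromosome III, 1891328 to 1893817, plus strand) encodes a protein of 421 residues and had the fewest counts of the 11, 68 to 363 per library. It was at 4.48, 3.45 and 4.41 CPM in the controls and 5.01, 4.59 and 4.70 with H2O2. In irradiated cells it was at 9.30, 10.6 and 9.78 CPM at 10 min, 20.6, 13.8 and 15.6 at 15 min and 7.60, 6.58 and 7.69 at 30 min. Every plasma library was above every control and H2O2 library, and the 15 min libraries stood above the other times. The ratios were 2.41, 4.05 and 1.77 times control after plasma and 1.16 with H2O2. It shares 31.6% of its listed length with other genes, mainly ima1 (SPCC737.03c) on the other strand. ima1 was at 92.8 ± 4.36 CPM without irradiation and at 82.7 ± 5.99 at 15 min, and was not higher after plasma.

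SPAC56F8.15 (chromosome I, 1151431 to 1153638, plus strand) encodes a protein of 176 residues. It was at 8.63, 7.87 and 13.5 CPM in the controls and 9.51, 10.6 and 15.9 with H2O2. After plasma it was at 17.3, 17.96 and 18.5 CPM at 10 min, 19.7, 17.3 and 16.7 at 15 min and 17.8, 19.6 and 19.8 at 30 min. All plasma libraries were above all controls and all H2O2 libraries, but library c was the highest of both those groups and came near the plasma range. The ratios were 1.79, 1.79 and 1.91 times control after plasma and 1.20 with H2O2. It shares 36.9% of its listed length, mainly with mug115 (SPAC56F8.14c) on the other strand, which was at 40.2 ± 3.35 CPM without irradiation and 49.9 ± 2.12 at 30 min. Another 67 bases are shared with esc1 (SPAC56F8.16) on the same strand, which was at 128 ± 26.2 CPM without irradiation. esc1 was at 1.38, 1.37 and 1.40 times control after plasma and 1.04 with H2O2. Whether reads from esc1 entered the counts of SPAC56F8.15 was not tested.

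**Figure D2:**
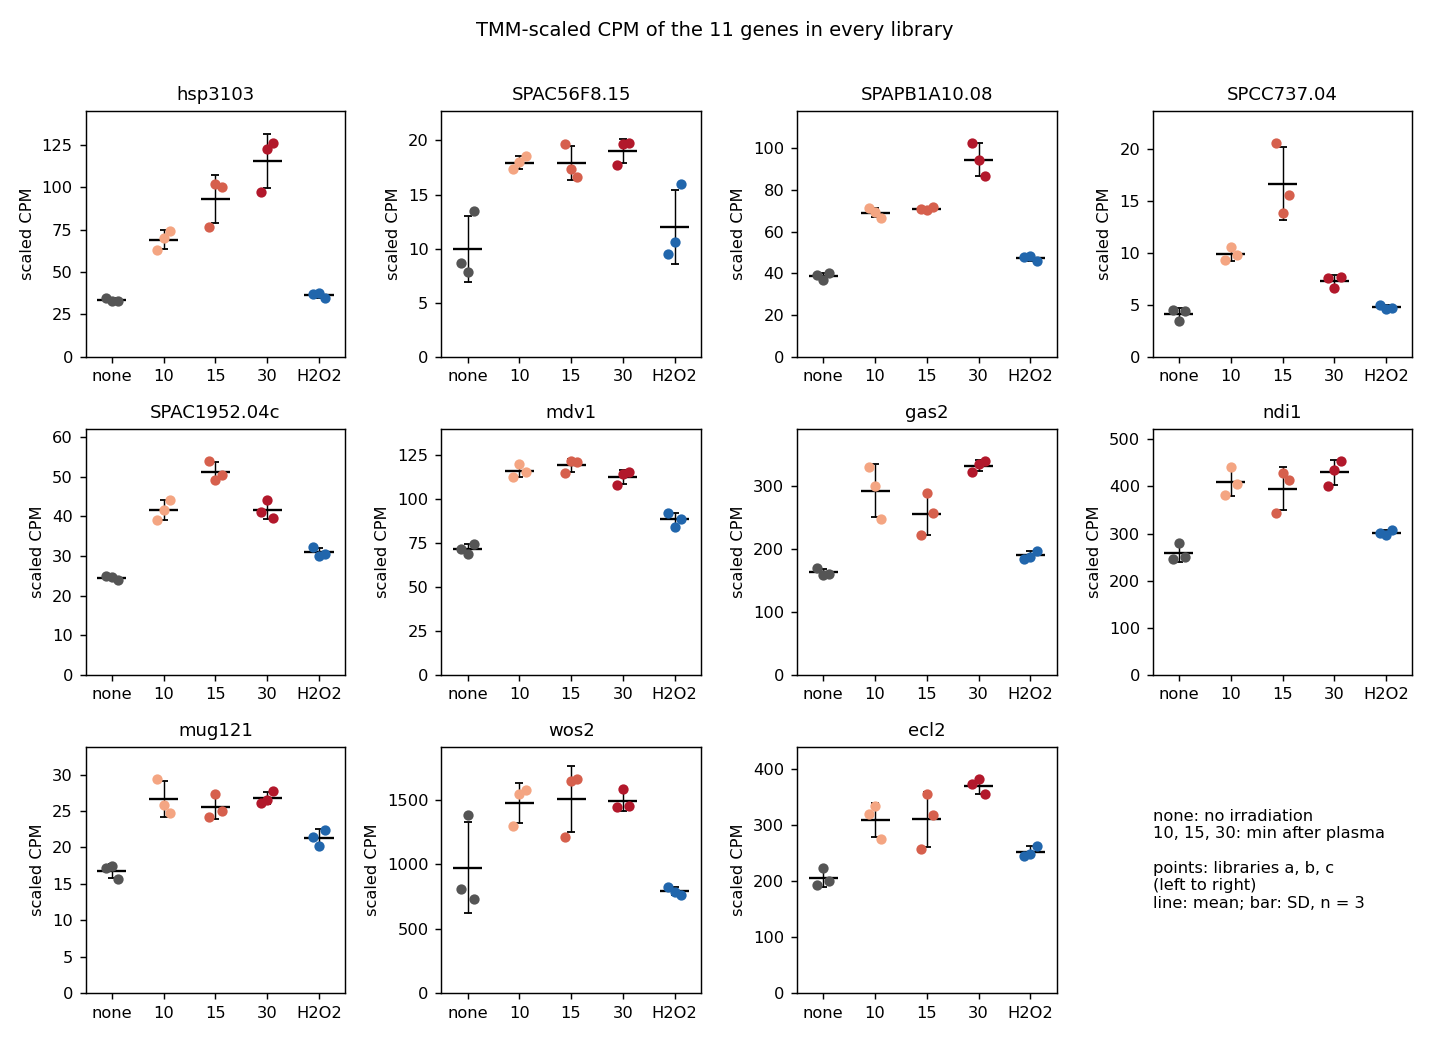
TMM-scaled CPM of each of the 11 genes in all 15 libraries, in 5 groups (points, libraries a, b and c from left to right; line, mean; bar, SD, n = 3), ordered by the lowest plasma ratio. Plasma libraries sit above the controls in every gene except for control library b of wos2, hsp3103 climbs from 10 to 30 min, and SPCC737.04 and SPAC1952.04c are highest at 15 min.

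The comparisons between plasma times asked how the 11 genes moved once raised. The rule did not compare 15 with 10 min or 30 with 15 min, but it held the mean of each time at 1.5 times control or more, so a gene near that limit could not fall to it and stay among the 11. In the same way, a gene near that limit at the earlier time could only stay or rise. The numbers that rose and fell, and the medians, were therefore shaped by the choice. Nothing is read from them against the values over all genes. The differences were tested with edgeR's quasi-likelihood F-test over all 5214 genes, two-sided, with Benjamini-Hochberg adjustment. Between 10 and 15 min, 3 of the 11 rose and 0 fell, where 7.67% of all genes tested rose and 5.96% fell. The count of 0 stood at an unadjusted p under 0.05 and in DESeq2 as well. The median log2 fold change was 0.0305 over the 11 and -0.0014 over all genes. Between 15 and 30 min, 3 rose and 2 fell, against 15.1% and 13.7% of all genes, with a median of 0.0954 against -0.012.

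SPCC737.04 had the largest changes of both intervals among the 11. It rose from 9.90 ± 0.661 to 16.7 ± 3.51 CPM between 10 and 15 min (log2 fold change 0.74 ± 0.14, edgeR adjusted p = 0.00209) and fell to 7.29 ± 0.616 at 30 min (-1.19 ± 0.14, adjusted p = 3.88e-05), with no overlap between libraries of the times compared. SPAC1952.04c made the same turn on a smaller scale. It rose by 0.30 ± 0.059 (log2, adjusted p = 0.00315) and then changed by -0.30 ± 0.059 (adjusted p = 0.0018), which brought it from 51.2 ± 2.43 back to 41.6 ± 2.199 CPM.

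hsp3103 rose in both intervals, by 0.43 ± 0.10 (edgeR adjusted p = 0.0121) and by 0.31 ± 0.10 (adjusted p = 0.0373). All 3 libraries at 15 min were above all 3 at 10 min, while those at 15 and 30 min overlapped. Its first rise missed the threshold without 10 min library a (0.37, adjusted p = 0.0756) or 15 min library b (0.36, adjusted p = 0.062). Its second missed it without 15 min library a (0.19, adjusted p = 0.153), 30 min library b (0.26, adjusted p = 0.134) or 30 min library c (0.24, adjusted p = 0.149), with the 2 times fitted alone (adjusted p = 0.0894), and with total counts in place of TMM (adjusted p = 0.0921).

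SPAPB1A10.08 and gas2 rose between 15 and 30 min but did not pass between 10 and 15 min. SPAPB1A10.08 went from 71.1 ± 0.516 to 94.5 ± 7.84 CPM (0.41 ± 0.054, edgeR adjusted p = 7.98e-05), after 0.039 ± 0.054 in the first interval (adjusted p = 0.69). gas2 went from 255 ± 33.4 to 332 ± 8.999 CPM (0.38 ± 0.10, adjusted p = 0.00907), after -0.20 ± 0.10 (adjusted p = 0.201). Its second change missed the threshold with total counts (0.30, adjusted p = 0.0783). ecl2 did not pass at 30 against 15 min (0.25 ± 0.10, adjusted p = 0.0725). It passed without control library b (0.26, adjusted p = 0.0476), without 15 min library b (0.36, adjusted p = 0.0188), and in DESeq2 (0.26, adjusted p = 0.0472).

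The other 5 genes, mdv1, ndi1, wos2, mug121 and SPAC56F8.15, passed in neither interval. Their log2 differences ran from -0.061 in mug121 to 0.040 in mdv1 for the first interval and from -0.083 in mdv1 to 0.12 in ndi1 for the second. The 95% intervals were narrow for mdv1, from -0.058 to 0.14 in the first interval, and wide for wos2, from -0.37 to 0.43, so a change of that size in wos2 was not detectable with 3 libraries a group. Against 10 min, a comparison the rule bounded and that carries no test, the 30 min libraries lay wholly above in 3 of the 11 (SPAPB1A10.08, hsp3103 and ecl2; 26.7% of all genes) and wholly below in SPCC737.04 (25.4%).

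**Figure D3:**
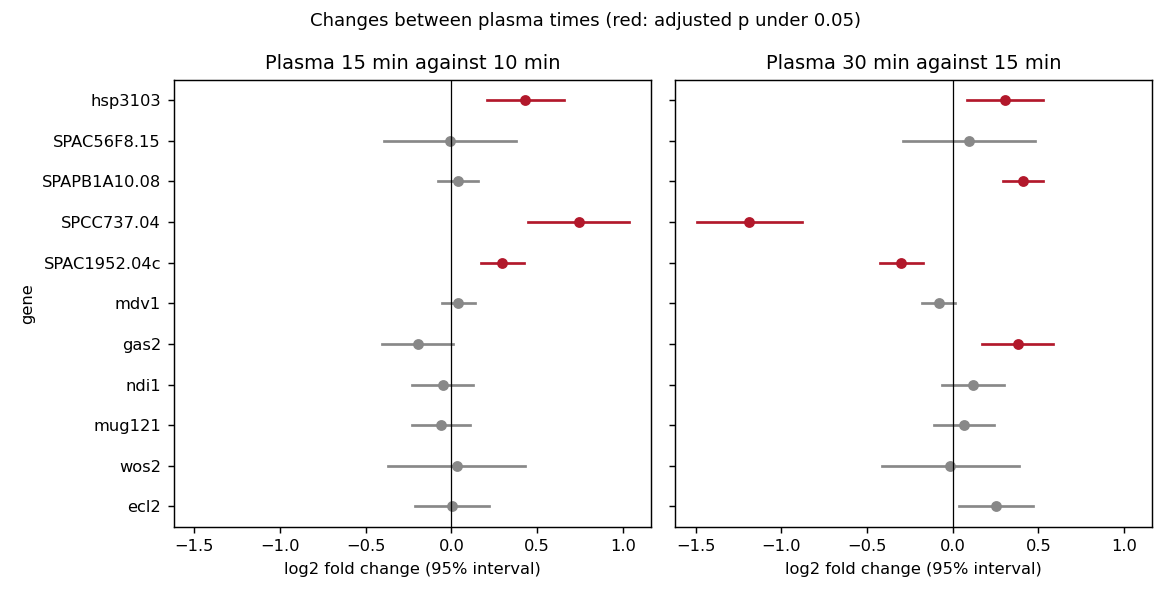
Log2 fold change between consecutive plasma times for the 11 genes (points) with 95% intervals (lines), from edgeR on all 15 libraries, with changes at adjusted p under 0.05 in red. hsp3103 is above 0 in both panels, SPCC737.04 and SPAC1952.04c reverse, and SPAPB1A10.08 and gas2 are above 0 in the second panel.

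The 3 genes that rose between 15 and 30 min are shown with the bases just before their transcripts, since they share a rise in that interval and no other coding gene lies in these stretches. They do not share the earlier interval, in which 1 of them, hsp3103, rose. The sequences come from the RefSeq genome (build ASM294v3), are written 5' to 3' on the gene's strand, and stop at the first base listed as transcribed in either annotation. Capitals mark matches on either strand to the motifs listed afterwards. They cover chrII:657874-658037 (minus strand, 164 bases) for hsp3103, chrI:1875336-1875571 (plus strand, 236 bases) for SPAPB1A10.08 and chrII:2553689-2553938 (plus strand, 250 bases) for gas2. At least 1 non-coding RNA gene is annotated within each of them.
hsp3103: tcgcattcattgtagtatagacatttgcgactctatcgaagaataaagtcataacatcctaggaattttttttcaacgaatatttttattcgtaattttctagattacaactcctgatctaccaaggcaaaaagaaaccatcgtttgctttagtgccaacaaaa
SPAPB1A10.08: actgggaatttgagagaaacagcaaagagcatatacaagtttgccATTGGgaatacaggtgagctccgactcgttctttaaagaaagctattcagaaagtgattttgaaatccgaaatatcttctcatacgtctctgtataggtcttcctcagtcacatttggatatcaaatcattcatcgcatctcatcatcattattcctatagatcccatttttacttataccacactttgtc
gas2: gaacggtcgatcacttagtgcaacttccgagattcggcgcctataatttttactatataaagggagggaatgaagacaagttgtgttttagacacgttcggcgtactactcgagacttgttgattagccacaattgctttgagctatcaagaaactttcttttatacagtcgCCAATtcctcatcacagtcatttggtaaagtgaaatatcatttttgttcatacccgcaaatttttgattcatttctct

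The stretch before hsp3103 held no match to any motif searched, and those before SPAPB1A10.08 and gas2 each held a single CCAAT, the box read by the Php complex, on the minus and plus strand. A window of 250 bases before the RefSeq start could be read for 8 of the 11 genes and for 4505 coding genes in all, since the other 3 have no mapped start. These windows, unlike the stretches shown, were not trimmed, and those of mug121, wos2, SPAC1952.04c and ndi1 overlap another coding gene. The mug121 window starts at base 436023, away from the end at 435179 in the deposited tables. Most of the mdv1 window, with its TTACGT, lies inside the gene as those tables list it. TTACGT, a site type of Pap1 and Atf1, was found in mug121, mdv1 and ndi1, that is 3 of 8, and in 12.7% of all windows. TGACGT, the core of the Atf1 element, was found in wos2, or 1 of 8 (5.37%). GAANNTTC, the unit of the heat shock element, was found in SPAC1952.04c alone (9.37%), and not in wos2. CCAAT was found in 5 of 8 (35.2%), as was the GATA factor site GATAA (54.1%). The GATAA of SPAPB1A10.08 lies in the 14 bases next to the RefSeq start that were left out of its stretch shown above. The forkhead site GTAAACA was found in ndi1 alone (14.5%), and CCCCT, like the stress element of other yeasts, in mug121 alone (8.28%). The Pap1 site TTAGTAA was in 0 of 8 (10.9% of all windows), as were the MCB element ACGCGT (2.49%) and the TR box TTCTTTGT (2.82%). Both strands were searched, and no match overlapped another in the 3 stretches shown. These matches are a description of letters in the windows and not of binding.

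Relatives of the named genes were read beside them. In the Hsp31 family, hsp3104 (SPAC11D3.13) went from 108 ± 32.7 CPM to 529 ± 26.5 at 30 min and 723 ± 26.9 with H2O2, a rise in both (log2 2.29 ± 0.15, edgeR adjusted p = 8.4e-09, and 2.74 ± 0.16, adjusted p = 1.61e-09), where hsp3103 was at 1.09 times control with H2O2. hsp3102 (SPAC5H10.02c) was low, at 0.521 ± 0.268 CPM in controls and 1.82 ± 0.478 at 30 min (1.74 ± 0.34, adjusted p = 0.000416), and did not pass with H2O2 (0.79 ± 0.37, adjusted p = 0.0846). hsp3101, hsp3105 and sdj1 had too few reads to be tested. Of the Gas enzymes, gas1 (SPAC19B12.02c), at 2238 ± 144 CPM in controls, fell in both treatments (-1.62 ± 0.088 at 30 min, adjusted p = 8.91e-10, and -1.08 ± 0.087 with H2O2, adjusted p = 7.13e-08). gas4 (SPBC342.03) passed in neither (-0.10 ± 0.061, adjusted p = 0.172, and -0.013 ± 0.06, adjusted p = 0.867). gas5 (SPAC11E3.13c) fell at 15 min (-0.80 ± 0.28, adjusted p = 0.0251) and 30 min (-0.93 ± 0.28, adjusted p = 0.0104), and was at 0.099 at 10 min (adjusted p = 0.796). With H2O2 gas5 did not pass (-0.60 ± 0.27, adjusted p = 0.074), but it did without control library b (-0.80, adjusted p = 0.0252).

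In the Ecl family, ecl1 (SPCC70.12c) rose from 14.705 ± 2.06 to 171 ± 26.9 CPM at 30 min and to 92.8 ± 1.69 with H2O2 (3.54 ± 0.14, edgeR adjusted p = 4.31e-11, and 2.67 ± 0.14, adjusted p = 6.34e-10). ecl3 (SPBC8E4.12c) fell at 30 min and with H2O2 (-0.65 ± 0.24, adjusted p = 0.0276, and -1.93 ± 0.27, adjusted p = 2.1e-05). At 10 and 15 min ecl3 was at 0.51 ± 0.21 and -0.30 ± 0.22 and passed at neither (adjusted p = 0.0681 and 0.282). nde1 (SPAC3A11.07), the other alternative NADH dehydrogenase, rose by 0.32 ± 0.071 at 30 min (adjusted p = 0.00135) and did not pass with H2O2 (0.016 ± 0.071, adjusted p = 0.86). dnm1 (SPBC12C2.08), the dynamin of mitochondrial division, rose by 0.39 ± 0.053 at 30 min (adjusted p = 1.11e-05) and by 0.36 ± 0.053 with H2O2 (adjusted p = 3.73e-05). fis1 (SPBC11G11.01), the mitochondrial anchor of that machinery, passed in neither (adjusted p = 0.855 and 0.538).

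**Figure D4:**
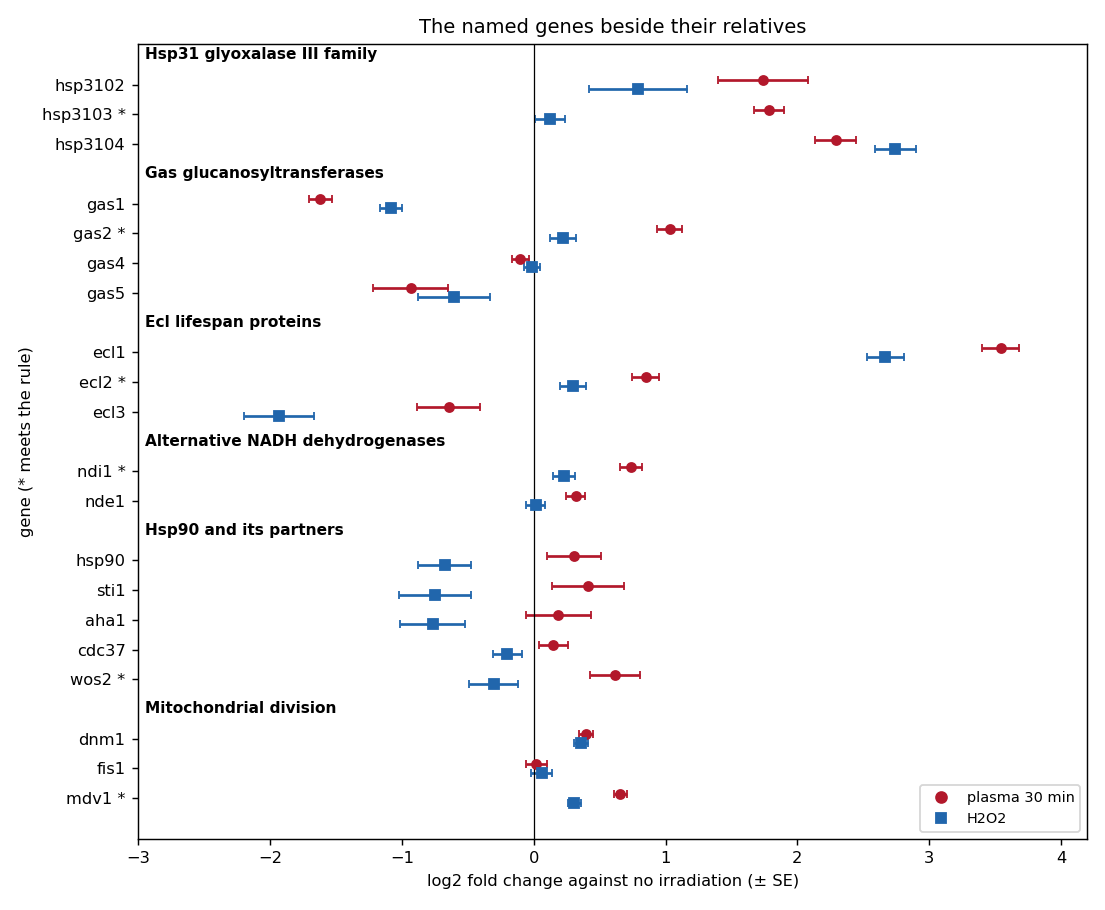
Log2 fold change against no irradiation at 30 min after plasma (red circles) and with H2O2 (blue squares), with SE bars, for 6 of the 11 genes (asterisks) and for their relatives with enough reads. hsp3104 and ecl1 are high in both treatments, while hsp3103, gas2 and ecl2 have plasma values from 0.85 to 1.78 and H2O2 values from 0.12 to 0.30.

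Only the heat shock list and the cell wall list, of 17 lists of stress and metabolic genes, held one of the 11, wos2 in the first and gas2 in the second. Of the 21 heat shock and chaperone genes tested, wos2 included, 11, 7 and 10 were higher at 10, 15 and 30 min, against 21.9%, 27.1% and 31% of all genes. At each plasma time wos2 was 1 of the higher genes. The choice had used those values, so nothing is read from its part in the counts. In that list 0, 2 and 2 were lower by edgeR, against 17%, 24.8% and 29%, and the count at 10 min was 1 at an unadjusted p under 0.05 and 1 in DESeq2. With H2O2, 2 were higher (28.5%) and 7 lower (25.6%), and the list's median log2 fold change was -0.19, after 0.31 at 30 min (-0.0052 and -0.0094 over all genes). hsp16 (SPBC3E7.02c), a small heat shock protein, rose at 30 min (2.74 ± 0.35, edgeR adjusted p = 7.7e-06) and did not pass with H2O2 (0.68 ± 0.34, adjusted p = 0.101). ssa1 (SPAC13G7.02c), an Hsp70, rose at 30 min (1.63 ± 0.48, adjusted p = 0.00883) and was at -0.39 ± 0.47 with H2O2 (adjusted p = 0.505). Its mean was 371 CPM in controls and 1163, 355 and 1148 CPM at 10, 15 and 30 min, so it was not raised at 15 min. hsp104 (SPBC16D10.08c) dipped in the same way, at 376, 858, 295 and 798 CPM. The 2 genes higher with H2O2, hsp9 (SPAP8A3.04c) and hsf1 (SPAC2E12.02), were also higher at 30 min. The 2 lower at 30 min, sks2 (SPBC1709.05) and mge1 (SPBC3B9.19), were also lower with H2O2. Of the Hsp90 machinery that wos2 serves, hsp90 (SPAC926.04c) fell with H2O2 (-0.68 ± 0.20, adjusted p = 0.0111). So did its co-chaperones sti1 (SPCC645.14c, -0.75 ± 0.27, adjusted p = 0.0308) and aha1 (SPBC1711.08, -0.77 ± 0.25, adjusted p = 0.0166). None of the 3 passed at 30 min (adjusted p = 0.21, 0.208 and 0.538). Another partner of Hsp90, cdc37 (SPBC9B6.10), passed neither with H2O2 (-0.20 ± 0.11, adjusted p = 0.14) nor at 30 min (0.15 ± 0.11, adjusted p = 0.267).

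These heat shock values moved most with control library b, the one in which wos2 was high. Without it, 17, 14 and 16 of the list were higher at 10, 15 and 30 min, and with H2O2 5 were higher and 1 lower. Without it, the falls of hsp90, sti1 and aha1 with H2O2 no longer passed (adjusted p = 0.0845, 0.369 and 0.157), and all 3 rose at 30 min (0.68, 0.97 and 0.73, adjusted p = 0.00114, 0.000307 and 0.000319). Still without it, cdc37 passed in neither (0.22 at 30 min, adjusted p = 0.148, and -0.14 with H2O2, adjusted p = 0.372). Leaving out control library a or c instead gave 6 higher at 30 min in both cases, and at 10 min 6 were higher without control library a or without 10 min library b. The source of the difference between control libraries was not tested.

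Of the 31 cell wall and Pmk1 genes tested, gas2 included, 8, 8 and 9 were higher and 8, 11 and 10 lower at 10, 15 and 30 min, with 8 higher and 8 lower with H2O2. At each plasma time gas2 was 1 of the higher genes, and the choice had used those values. Over all genes 21.9%, 27.1% and 31% were higher and 17%, 24.8% and 29% lower at the plasma times, and 28.5% higher and 25.6% lower with H2O2, and this list's shares of higher genes are near those. Its median log2 fold change was -0.068 at 30 min and 0.10 with H2O2, against -0.0094 and -0.0052 over all genes. The 36 core stress genes tested held none of the 11. Of them, 27, 28 and 28 were higher and 3, 3 and 2 lower at the 3 plasma times, and 27 were higher and 2 lower with H2O2, with a median log2 fold change of 1.95 at 30 min and 1.41 with H2O2. Set against the shares over all genes just given, most of this list was higher in every treatment. The 19 genes of the Pap1 list also held none, and 13, 17 and 18 were higher at the plasma times and 18 with H2O2, against the same 21.9%, 27.1%, 31% and 28.5% of all genes, with medians of 1.74 at 30 min and 1.94 with H2O2. The rule kept out genes that H2O2 raised by 1.3 times or more, as it raised most genes of both lists, so nothing is read from the absence of the 11 from them.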

How the data were processed

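RNA-seq counts were analysed from 15 libraries of 5 groups. The authors deposited raw counts of read pairs per gene, in 1 table of 12 columns (controls and plasma) and 1 of 3 columns (H2O2), which were joined on the gene identifier. Per the labels' protocols, hot phenol was used to extract RNA and a stranded mRNA kit to make libraries. Per the submitters' processing notes, HISAT2 2.2.1 and SAMtools 1.13 were used, on a build named R64, which is a budding yeast name. Positions are therefore given as the tables list them. Per the file headers, featureCounts 2.0.1 counted pairs over transcript features with no strand option and no option for reads shared between genes. Of 778 genes lying wholly inside another gene, 778 were at 0 in every library, against 187 of 6220 others (3.01%), so pairs in shared stretches were dropped and values of overlapping genes come from their unshared bases.

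Genes were kept with filterByExpr, which left 5214, scaled with TMM and fitted with edgeR 4.0.16 (R 4.3.3) over all libraries, with 1 mean for each group, with Benjamini-Hochberg adjustment per comparison at 0.05 and a common biological coefficient of variation of 8.8%. All 11 genes were among those kept. Counting error between replicates was exceeded throughout (chi-square per degree of freedom 8.94 to 79.7). The p-values set a difference between groups against a spread between replicates estimated over all groups together. Members and lists were chosen with earlier results of these data known, and the families of relatives after values were seen. Each treatment against control, each plasma time against H2O2, and 30 against 10 min were used by the rule and carry no test for the 11 genes. All 11 are described in full, with the 3 genes nearest each side of every limit. The 17 lists, with 409 names of which 21 matched no gene, are described by counts. RefSeq names matched 6852 identifiers. Windows were read in ASM294v3, in which 5097 of 5112 coding genes (99.7%) had the 3' end of the tables. Alternatives were RLE size factors, total counts, other filters, DESeq2 1.42.0, the compared groups alone, the library letter as a block, other limits of the rule, and each library left out. The script was tested on simulated data. No column of values was left out.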

Additional observations from a re-analysis of the deposited data

Results flagged for a closer look

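Of the 11 genes, 5 differed between consecutive plasma times by edgeR's test of that difference. Between 10 and 15 min the log2 fold change was 0.74 in SPCC737.04, 0.43 in hsp3103 and 0.30 in SPAC1952.04c. Between 15 and 30 min it was -1.19 in SPCC737.04, -0.30 in SPAC1952.04c, 0.41 in SPAPB1A10.08, 0.38 in gas2 and 0.31 in hsp3103. The 2 genes that turned back, SPCC737.04 and SPAC1952.04c, passed in both intervals under every alternative run. With 3 libraries a group, no test for a single outlying library was made.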

How the results depend on the processing

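The number of genes meeting the rule depended most on its limits. It was 1 with a plasma ratio of at least 2 (hsp3103), 1 with an H2O2 ratio below 1 (wos2), 17 with group medians, 10 of them among the 11, and 24 without the minimum mean. It was 10 with RLE size factors, 8 with total counts, 9 without genes shared over at least 50% of their length, 12 with non-coding RNA genes, and 10 with every plasma library required above every control (the last 2 chosen after seeing the data). Leaving out single libraries or letters gave 6 to 13. Members differing between 15 and 30 min fell from 5 to 3 with total counts, and were 4 to 6 with a library left out and 6 with DESeq2. Those between 10 and 15 min were 2 or 3 throughout. Of 484 recomputed log2 fold changes between times, 452 kept direction and call, 8 lost the call, 4 gained it and 20 changed sign, all 20 being differences that passed in no fit. With total counts, SPAC56F8.15 gave 0.026 (15 against 10 min) and mug121 -0.014 (30 against 15 min). With libraries left out, the 15 against 10 min value ran from -0.12 to 0.014 in mug121, -0.080 to 0.058 in SPAC56F8.15, -0.053 to 0.17 in wos2, -0.11 to 0.040 in ndi1 and -0.11 to 0.12 in ecl2, and the 30 against 15 min value from -0.15 to 0.069 in wos2. The causes were not tested. Library letters were not taken to pair the samples, since 17 and not all of 30 same-letter correlations of deviations exceeded 0.1 (median 0.12, -0.11 to 0.31). That 11 of 15 libraries correlated best with their own letter is a hint of sharing from the data, not from the design. With the replicate block, ecl2 passed at 30 against 15 min (0.26, adjusted p = 0.0359) and was at -4e-04 at 15 against 10 min, members called were 3 and 6, and genes called over the table went from 711 to 783 and from 1498 to 1600. The standard error of the 15 against 10 min difference was 0.14 in SPCC737.04, the gene of fewest counts, 0.18 in SPAC56F8.15, 0.080 in mug121 and 0.19 in wos2, and the part of depth in it was not tested.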
